A study of Capra hircus with 6 samples.

Results

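Wnt ligands and the secreted proteins that restrain them were followed in cultured adipose mesenchymal stem cells of the goat (Capra hircus), the fat-derived stromal cells from which adipocytes can be induced. The genes were taken by name: the ligands WNT5A, WNT5B and WNT10B, the secreted frizzled-related proteins SFRP1, SFRP2 and SFRP4, the Dickkopf genes DKK1, DKK2 and DKK3, and the Wnt-inactivating enzyme gene NOTUM. Of these 10 genes, 8 matched a row of both expression tables, which hold 16285 rows, and DKK1 and DKK2 were not analysed here. RNA sequencing covered 6 libraries, 3 control (genotype WT in the labels) and 3 labelled as overexpressing YAP, a transcriptional coactivator of the Hippo pathway encoded by YAP1. Both groups carry the treatment label adipogenic differentiation, with no time or dose. The series' design text speaks of cells overexpressing TAZ, the relative of YAP encoded by WWTR1, whereas the sample labels name YAP. The 3 control columns recur with identical values in all 16285 rows of the table that holds the YAP libraries, there under the name pcDNA, a name also used for a series of expression plasmids. The labels do not say whether the controls carried a vector.

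Wnt proteins are secreted lipid-modified ligands. Canonical Wnts bind a Frizzled receptor and an LRP5 or LRP6 coreceptor and stabilise beta-catenin, which acts with TCF and LEF factors on target genes. In fat, canonical Wnt signalling, of which WNT10B is the best known ligand, holds precursor cells back from becoming adipocytes. WNT5A is the best known noncanonical ligand and can signal through the receptor ROR2. Secreted frizzled-related proteins bind Wnts outside the cell, Dickkopf proteins such as DKK1 and DKK2 block the LRP coreceptors, DKK3 is a divergent member of that family, and NOTUM removes the lipid that Wnts need to bind Frizzled.

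Values were FPKM, fragments scaled to the length of the gene and to the fragments counted in the library, so levels can be compared between genes. Whole reads recovered from the FPKM steps gave totals of 32593380 to 37131015 counted fragments per library, and 3 reads, taken as the detection floor, corresponded to between 0.0114 and 0.0515 FPKM for the genes followed. These floors and the read intervals below cover counting error only. YAP1 stood at 25.8, 27.0 and 28.9 FPKM in the controls, replicates 1 to 3, and at 28.4, 25.6 and 28.2 FPKM in YAP replicates 1 to 3 (limma adjusted p = 0.95), so the group is called the libraries labelled YAP, and directions below are those of the label. WWTR1 was lower in that group, at 30.2, 29.9 and 35.9 FPKM in the controls against 21.9, 19.2 and 23.1 FPKM (limma adjusted p = 0.0013). All 8 stromal markers listed passed the filter on low values, and they were split by limma. THY1, PDGFRB, COL1A1 and DCN were higher in the libraries labelled YAP. ENG (150 to 80.8 FPKM) and NT5E (170 to 127 FPKM) were lower, and PDGFRA and VIM did not pass. Of 7 adipocyte markers found, 5 were too low to be tested, at no more than 0.236 FPKM. Among these, PPARG had 2 to 4 reads per library, LPL 0 to 4 and LEP 0 to 1. Mean PLIN1 stood at 0.130 FPKM in controls and 0.199 FPKM in the libraries labelled YAP, without overlap. Summed over 7 adipocyte markers, the level was 19.0 to 21.6 FPKM in controls and 10.6 to 12.5 FPKM in the libraries labelled YAP, most of it CIDEC. CIDEC was lower in the libraries labelled YAP (18.3 to 9.56 FPKM, limma adjusted p = 3.2e-05). CEBPA did not pass (1.87 and 1.59 FPKM, limma adjusted p = 0.22). Leukocyte markers summed to 22.2 to 25.3 FPKM and 30.2 to 32.1 FPKM, from CD14, CD68 and LAPTM5 in the main, with CD14 higher (9.58 to 18.6 FPKM) and CD68 lower (4.53 to 2.03 FPKM) in the libraries labelled YAP by limma, LAPTM5 not past the threshold, and PTPRC and CD74 at no more than 1 read and AIF1 at 0. Endothelial markers summed to 0.336 to 0.533 FPKM in controls and 0.215 to 0.293 FPKM in the libraries labelled YAP, none of them abundant enough to be tested, with mean PECAM1 at 0.369 and 0.0446 FPKM and mean VWF, the other way, at 0.0321 and 0.103 FPKM. The part of these markers in the results below was not tested. Nothing in the labels ties the replicates to separate animals or cultures, and p-values therefore cover no more than the scatter among these 6 libraries, which may be technical.

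Differences were tested with limma on log2(FPKM + 1) for the 10761 genes that reached 1 FPKM in 3 or more libraries, with p-values adjusted over all of them and a threshold of 0.05. Log2 differences are the libraries labelled YAP minus control on that scale, on which a low gene's change appears smaller than its fold. Over all tested genes, 35.9% passed the threshold, 12.9% higher and 23.0% lower (3868 genes, and 2411 without YAP replicate 1). The balance depends on scaling, since 36.0% of calls were higher without rescaling, against 54.4% once the libraries were scaled by the median of ratios (29.6% of genes called, 16.1% higher and 13.5% lower). Values of the groups did not overlap for 48.3% of tested genes, 16.7% with the libraries labelled YAP above and 31.6% below. Among the 8 genes followed, the groups did not overlap for 7, with 3 above and 4 below. Of the 7 genes followed that were tested, 3 were higher (WNT5A, SFRP1, SFRP4), 3 were lower (SFRP2, DKK3, NOTUM) and WNT10B did not pass, and median-of-ratios scaling gave 3 and 3 as well. The median log2 difference was -0.27 over these 7 genes and -0.10 over all tested genes. NOTUM entered the test only through its control values, and WNT5B fell short of the filter.

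**Figure D1:**
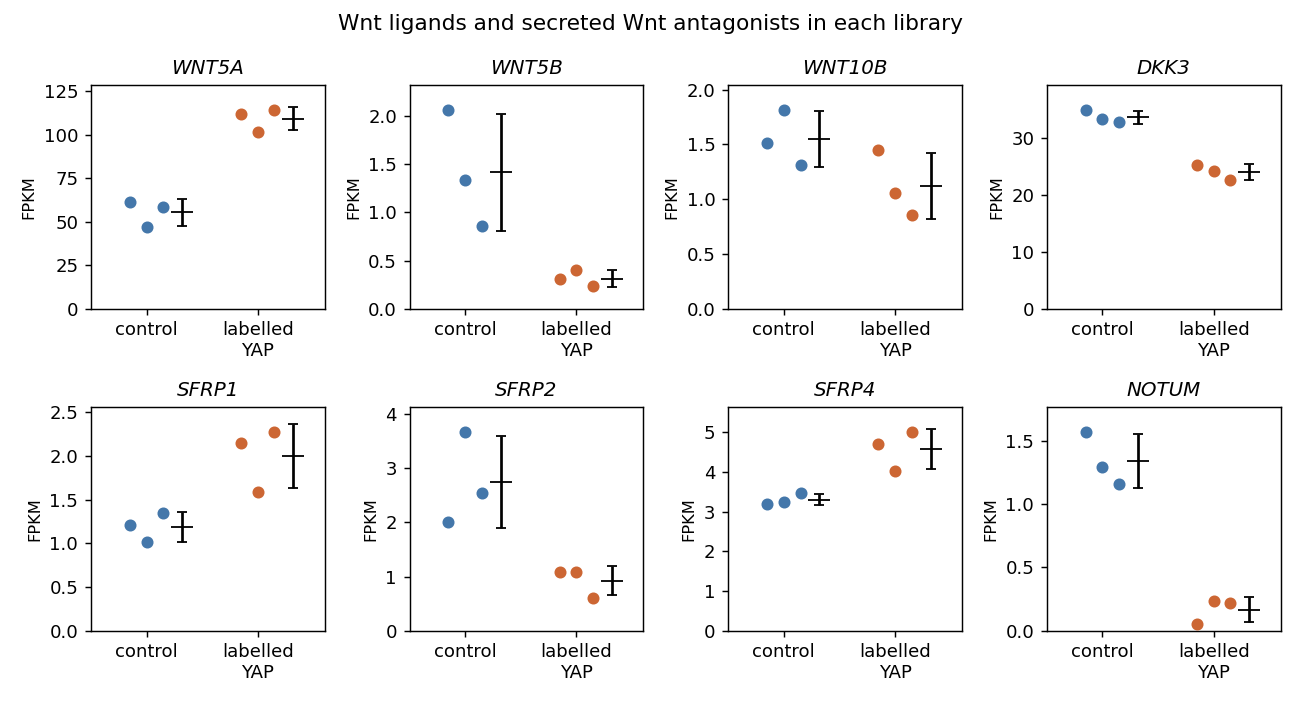
Each panel plots 1 gene in FPKM on a linear axis from 0, with 1 point per library (blue control replicates 1 to 3, orange libraries labelled YAP, replicates 1 to 3, from left to right) and black bars for the mean and SD of the 3 libraries. Points of the groups are apart in every panel except WNT10B, where YAP replicate 1 (1.45 FPKM) lies between the control values.

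WNT5A was by far the most abundant ligand, and it was 1.97-fold higher in the libraries labelled YAP, where its close relative WNT5B was lower. WNT5A stood at 61.4, 46.8 and 58.3 FPKM in the controls, replicates 1 to 3, and at 112, 102 and 114 FPKM in YAP replicates 1 to 3. The lowest library labelled YAP lay well above the highest control. Group means were 55.5 ± 7.69 and 109 ± 6.72 FPKM (SD, n = 3 each) and the log2 difference was 0.97 (SE 0.10, 95% confidence interval 0.75 to 1.20, limma adjusted p = 3.2e-05). Each value rested on 11209 to 30058 reads. In all 12 alternative fits the difference passed the threshold, between 0.86 and 1.07.

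WNT5B, the paralogue of WNT5A, stood at 2.06, 1.33 and 0.857 FPKM in the controls, replicates 1 to 3, and at 0.304, 0.403 and 0.232 FPKM in YAP replicates 1 to 3. The controls were spread over more than their counting error, from 192 reads in replicate 1 (95% Poisson interval 165.8 to 221.2) to 79 reads in replicate 3 (62.6 to 98.5), but none reached down to the libraries labelled YAP, which had 23 to 35 reads. The mean was 4.52-fold lower in the libraries labelled YAP (1.42 ± 0.61 against 0.313 ± 0.086 FPKM). With the filter relaxed to 0.1 FPKM, where 33.2% of 12731 genes passed (12.6% higher and 20.6% lower), WNT5B was lower by limma (log2 difference -0.85, adjusted p = 0.0018). No source used here says how reads that fit both paralogues were counted.

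WNT10B, the ligand best known for holding back adipogenesis, stood at 1.51, 1.81 and 1.31 FPKM in the controls, replicates 1 to 3, and at 1.45, 1.05 and 0.860 FPKM in YAP replicates 1 to 3. The groups overlapped, with YAP replicate 1 above control replicate 3. The log2 difference of -0.27 (SE 0.12, 95% confidence interval, not adjusted for the number of genes, -0.53 to -0.01) did not pass after adjustment (limma adjusted p = 0.10). Its adjusted p by limma ranged from 0.039 to 0.30 over the 12 alternative fits, and of the 6 fits without a library it passed in that without YAP replicate 1 (adjusted p = 0.047).

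Of the other Wnt ligands, 13 had a row in the tables and only WNT9A was abundant enough to be tested. WNT9A stood at 2.68 ± 0.04 FPKM in controls and 4.77 ± 0.35 FPKM in the libraries labelled YAP (log2 difference 0.65, limma adjusted p = 2.3e-04). The other 12 stayed below 1 FPKM in every library. Among them, singled out after their values were seen, WNT2 stood at 0.309, 0.425 and 0.377 FPKM in the controls, replicates 1 to 3, and at 0.876, 0.869 and 0.823 FPKM in YAP replicates 1 to 3, with no overlap. WNT6 ran from 0.233 to 0.413 FPKM in controls and from 0.740 to 0.858 FPKM in the libraries labelled YAP. Both were higher by limma with the filter at 0.1 FPKM (WNT2 adjusted p = 7.0e-04 and WNT6 adjusted p = 8.7e-04). WNT1 had no read in any library, which says only that it was not detectable at this depth.

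Ligand transcripts were therefore mostly WNT5A in every library. Within the summed FPKM of the 16 Wnt ligands measured, WNT5A held 88.1%, 85.2% and 89.9% in the controls and, likewise in order, 92.0%, 92.2% and 93.2% in YAP replicates 1 to 3. WNT5B held 1.32% to 2.96% in controls and 0.189% to 0.365% in the libraries labelled YAP, and WNT10B 2.02% to 3.31% and 0.701% to 1.19%. Such shares are also lower where WNT5A is higher. The level of WNT10B itself overlapped between the groups and did not pass. The summed ligand level was 54.9 to 69.6 FPKM and 110.3 to 122.8 FPKM, whereas the sum without WNT5A was 6.56 to 8.28 FPKM in controls and 8.34 to 9.75 FPKM in the libraries labelled YAP. Shares and ratios within a library do not change when the library is rescaled. In bulk RNA, fewer cells of a type and less RNA per cell cannot be told apart.

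The secreted antagonists split, also within a family. Of 5 tested, SFRP1 and SFRP4 were higher and SFRP2, DKK3 and NOTUM were lower in the libraries labelled YAP. All 5 thus passed, beside 35.9% of all tested genes, but the genes were chosen with earlier results of these data known. SFRP1 and SFRP2 are close relatives that bind Wnts through a Frizzled-like domain, and SFRP4 belongs to another branch of the family.

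SFRP1 stood at 1.21, 1.01 and 1.35 FPKM in the controls, replicates 1 to 3, and at 2.14, 1.59 and 2.28 FPKM in YAP replicates 1 to 3. Each library labelled YAP lay above each control, with the smallest gap between YAP replicate 2 and control replicate 3. SFRP1 rose 1.69-fold in mean FPKM (log2 difference 0.45, SE 0.11, 95% confidence interval 0.21 to 0.70, limma adjusted p = 0.0089), on 147 to 363 reads per library. With a pseudocount of 0.1 the SFRP1 log2 difference was 0.70, and with limma-voom on recovered reads 0.75.

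SFRP4 stood at 3.20, 3.24 and 3.46 FPKM in the controls, replicates 1 to 3, and at 4.71, 4.02 and 5.02 FPKM in YAP replicates 1 to 3. The controls lay close together and below each library labelled YAP. SFRP4 rose 1.39-fold in mean FPKM (log2 difference 0.37, SE 0.10, 95% confidence interval 0.16 to 0.58, limma adjusted p = 0.011). The SFRP4 call was lost by limma without YAP replicate 1 (adjusted p = 0.059) and without YAP replicate 3 (adjusted p = 0.050, just above the threshold).

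SFRP2 stood at 2.02, 3.68 and 2.55 FPKM in the controls, replicates 1 to 3, and at 1.08, 1.09 and 0.611 FPKM in YAP replicates 1 to 3. Control replicate 2 was high and YAP replicate 3 low within their groups, and the groups did not overlap. SFRP2 was 2.97-fold lower in mean FPKM in the libraries labelled YAP (log2 difference -0.95, SE 0.16, 95% confidence interval -1.29 to -0.60, limma adjusted p = 8.4e-04), on 46 to 253 reads per library. With limma-voom on recovered reads the SFRP2 log2 difference was -1.57, and with a pseudocount of 0.1 it was -1.47.

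DKK3 was the most abundant antagonist among those followed. It stood at 35.0, 33.4 and 32.9 FPKM in the controls, replicates 1 to 3, and at 25.3, 24.3 and 22.7 FPKM in YAP replicates 1 to 3. Replicates were close within each group and the groups were well apart. DKK3 was 1.40-fold lower in mean FPKM in the libraries labelled YAP (log2 difference -0.47, SE 0.08, 95% confidence interval -0.64 to -0.30, limma adjusted p = 7.9e-04), on 2048 to 3173 reads per library, and -0.38 after median-of-ratios scaling.

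NOTUM, which inactivates Wnts and is itself a known beta-catenin target in several tissues, showed the largest ratio of mean FPKM between the groups among the genes followed. It stood at 1.57, 1.29 and 1.15 FPKM in the controls, replicates 1 to 3, and at 0.0508, 0.231 and 0.215 FPKM in YAP replicates 1 to 3, with no overlap. These were 117, 93 and 85 reads in controls and 4, 16 and 17 reads in the libraries labelled YAP. The 4 reads of YAP replicate 1 have a 95% Poisson interval of 1.09 to 10.2 reads, which meets that of the 16 reads of YAP replicate 2 (9.15 to 26.0). The mean was 8.09-fold lower in the libraries labelled YAP (1.34 ± 0.21 against 0.165 ± 0.10 FPKM). The log2 difference was -1.004 (SE 0.10, limma adjusted p = 2.8e-05) on the log2(FPKM + 1) scale, -2.51 with a pseudocount of 0.1 and -3.22 with limma-voom on recovered reads. NOTUM passed the filter only through its control values and so had to differ to some degree.

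**Figure D2:**
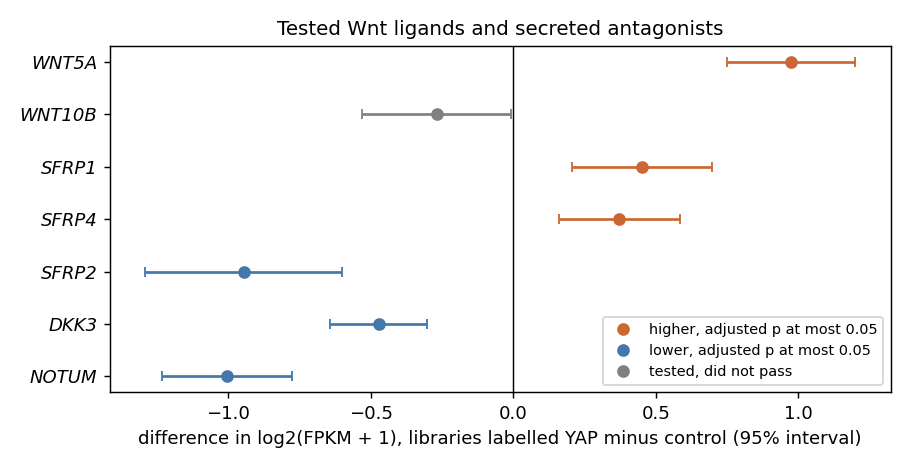
Points are log2 differences in FPKM + 1, libraries labelled YAP minus control, for the 7 tested genes, with 95% confidence intervals from limma that are not adjusted for the number of genes. WNT5A (0.97) stands farthest to the right and NOTUM (-1.004) farthest to the left, and WNT10B (-0.27) is the gene that did not pass after adjustment.

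SFRP1 and SFRP2 changed places in order of level, while the ranges of the sum over the 3 frizzled-related genes overlapped between the groups. Summed over SFRP1, SFRP2 and SFRP4 the level was 6.42 to 7.93 FPKM in controls and 6.69 to 7.93 FPKM in the libraries labelled YAP. SFRP2 made up 31.4%, 46.4% and 34.7% of that sum in the controls and, likewise in order, 13.6%, 16.3% and 7.72% in YAP replicates 1 to 3. SFRP1 made up 12.8% to 18.8% in controls and 23.7% to 28.8% in the libraries labelled YAP, and SFRP4 40.8% to 49.8% and 59.4% to 63.5%. The ratio of SFRP1 to SFRP2 was below 1 in each control (0.275 to 0.599) and above 1 in each library labelled YAP (1.46 to 3.73).

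The summed level of the 5 antagonists was 41.4 to 43.0 FPKM in controls and 30.8 to 33.3 FPKM in the libraries labelled YAP. DKK3 held 78.4% to 81.4% of it in controls and 73.6% to 77.8% in the libraries labelled YAP. The ratio of WNT5A to these antagonists together was 1.43, 1.10 and 1.41 in the controls and, likewise in order, 3.36, 3.26 and 3.72 in YAP replicates 1 to 3. It leaves out the 6 other genes found that were listed as extracellular inhibitors, WIF1 and DKKL1 in the main. No action of DKKL1 or DKK3 on Wnts was tested. Those 6 genes summed to 37.9 to 44.6 FPKM in controls and 35.5 to 39.8 FPKM in the libraries labelled YAP. The ratio therefore does not set WNT5A against all antagonists. WNT5A to DKK3 alone stood at 1.40 to 1.77 in controls and 4.19 to 5.05 in the libraries labelled YAP. The ratio of WNT5A to WNT5B ran from 29.8 to 68.1 in controls and from 252.6 to 492.5 in the libraries labelled YAP. These ratios describe transcripts, and they are given without a test because the genes were chosen with results known.

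**Figure D3:**
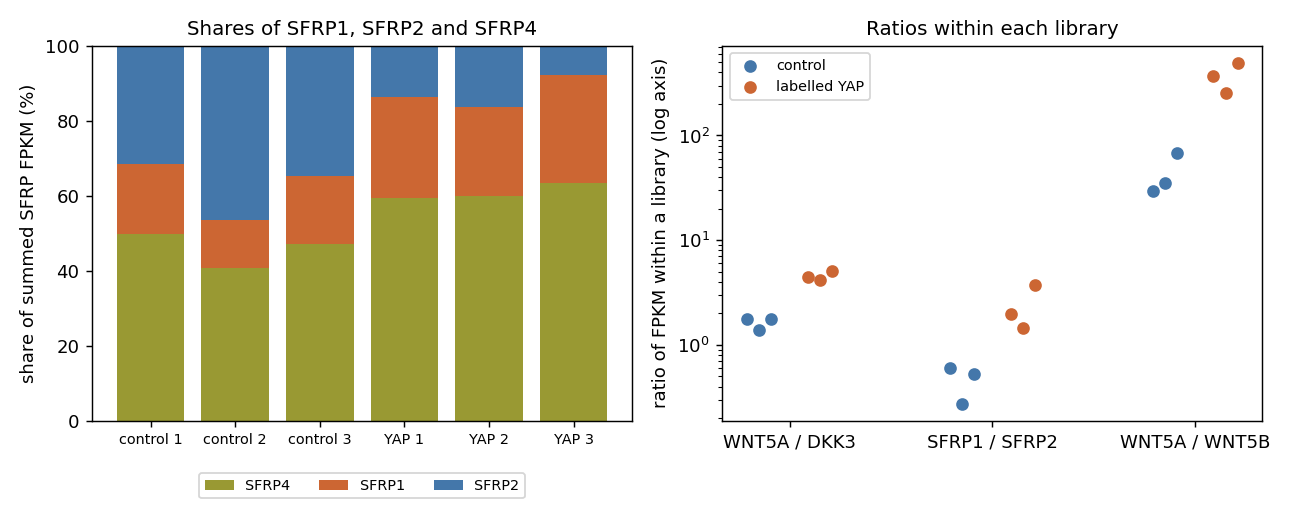
The left panel stacks the percent of summed SFRP1, SFRP2 and SFRP4 FPKM in each of the 6 libraries, and the right panel plots 3 ratios of FPKM within a library on a log axis, 1 point per library (blue control, orange labelled YAP). SFRP2 takes 31.4% to 46.4% of the stack in controls and 7.72% to 16.3% in the libraries labelled YAP, and the groups are apart in each ratio.

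In order of level, WNT5A and DKK3 led in both groups, far above the rest. In controls SFRP4 (3.30 FPKM) and SFRP2 (2.75 FPKM) followed with overlapping ranges, and then WNT10B (1.55), WNT5B (1.42), NOTUM (1.34) and SFRP1 (1.19 FPKM), whose neighbours in that order overlapped as well. In the libraries labelled YAP, SFRP4 (4.58 FPKM) and SFRP1 (2.00 FPKM) came next without overlap, WNT10B (1.12) and SFRP2 (0.926 FPKM) overlapped, and WNT5B (0.313) and NOTUM (0.165 FPKM) stood last, each apart from its neighbour. SFRP1 was thus the lowest by mean in controls and the fourth in the libraries labelled YAP.

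Around these genes, the rest of the Wnt pathway also moved both ways. Of 85 further pathway genes in the tables, 51 were tested, of which 18 were higher, 13 were lower and 20 did not pass (18 and 11 with median-of-ratios scaling). The share called was 60.8%, beside 35.9% over all tested genes. This list and the smaller lists below were chosen with earlier results of these data known, which limits what such shares can show. For the KEGG Wnt signaling pathway in the deposited annotation, without the genes followed, 43.9% of 98 tested genes were called. Genes that passed the filter through 1 group alone, such as AXIN2, FZD5 and LEF1, had to differ to some degree.

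Other genes listed as extracellular inhibitors were mixed. WIF1, a secreted protein that binds Wnts, fell from 20.6 ± 2.72 to 14.9 ± 0.65 FPKM (limma adjusted p = 0.0057). APCDD1, a membrane-bound inhibitor grouped here with them, rose from 1.77 ± 0.30 to 3.16 ± 0.53 FPKM (limma adjusted p = 0.0028). The Dickkopf-like gene DKKL1 stood at 18.9 ± 2.79 FPKM in controls and 19.4 ± 2.81 FPKM in the libraries labelled YAP (limma adjusted p = 0.82). The other 3 with a row, SFRP5, FRZB and SOST, stayed at or below 0.136 FPKM in every library.

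Of the genes that ligands need for secretion, WLS, which carries Wnts to the cell surface, rose from 41.5 ± 2.50 to 56.3 ± 2.34 FPKM (limma adjusted p = 0.0014). PORCN, which adds the lipid that NOTUM removes, stood at 2.36 ± 0.25 and 2.46 ± 0.17 FPKM (limma adjusted p = 0.74). Among R-spondins, which amplify Wnt signals, and their receptors, 1 of 4 tested genes was higher and 2 were lower. That is 75.0% called, beside 35.9% of all tested genes. RSPO1 rose from 0.940 ± 0.314 to 5.87 ± 0.28 FPKM (log2 difference 1.84, limma adjusted p = 4.8e-07). Among controls it reached 1 FPKM only in replicate 1 (1.30 FPKM), so it met the filter only with the libraries labelled YAP. RSPO3, the most abundant R-spondin, stood at 26.7 ± 4.28 FPKM in controls and 30.8 ± 0.15 FPKM in the libraries labelled YAP and did not pass (limma adjusted p = 0.14). LGR4, a receptor of R-spondins, fell from 12.6 ± 1.76 to 7.73 ± 1.15 FPKM, and ZNRF3, a ubiquitin ligase that removes Frizzled receptors, fell from 1.62 ± 0.18 to 1.07 ± 0.09 FPKM, a call lost without control replicate 1 (limma adjusted p = 0.053).

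Of 13 tested Wnt receptors and coreceptors, 6 were higher and 3 lower (6 and 2 after median-of-ratios scaling). The share called was 69.2%, beside 35.9% of all tested genes. ROR2, a receptor through which WNT5A can signal, rose from 4.93 ± 0.57 to 10.2 ± 0.81 FPKM (log2 difference 0.91, limma adjusted p = 4.5e-05). ROR1 did not pass (1.42 ± 0.48 and 1.34 ± 0.16 FPKM, limma adjusted p = 0.875). The more abundant receptor genes RYK and PTK7 went opposite ways. RYK fell from 74.5 ± 6.51 to 61.5 ± 2.13 FPKM (limma adjusted p = 0.025) and PTK7 rose from 163 ± 9.75 to 200 ± 5.58 FPKM (limma adjusted p = 0.011). The Frizzled genes were split. FZD1, the most abundant of them, rose from 67.0 ± 0.74 to 82.7 ± 1.41 FPKM (limma adjusted p = 0.0064). FZD2 (2.16 to 3.05 FPKM) and FZD10 (3.73 to 5.74 FPKM) were also higher by limma, and FZD4 did not pass. FZD8 and FZD5 fell, from 5.19 ± 0.87 to 1.13 ± 0.02 FPKM and from 3.09 ± 0.41 to 0.633 ± 0.082 FPKM. FZD5 passed the filter only through its control values. Of 7 tested genes of the planar polarity and calcium route, which noncanonical Wnts use, 3 were higher and 2 lower (71.4% called). NFATC4, a calcium-responsive factor, rose from 15.6 ± 0.58 to 26.3 ± 1.16 FPKM and PRICKLE2, a polarity gene, from 2.25 ± 0.21 to 3.53 ± 0.49 FPKM. CAMK2D, a calcium-dependent kinase, fell from 13.3 ± 0.87 to 9.57 ± 1.10 FPKM.

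Of 17 tested genes of the beta-catenin route inside the cell, 4 were higher, 3 lower and 10 did not pass. The share called, 41.2%, was near the 35.9% of all tested genes. The TCF and LEF genes, whose products carry beta-catenin to DNA, did not move together. TCF7 and LEF1 fell from 3.04 ± 0.33 to 1.03 ± 0.15 FPKM and from 1.74 ± 0.37 to 0.791 ± 0.117 FPKM. TCF7L1 rose from 5.33 ± 0.16 to 7.19 ± 0.43 FPKM (limma adjusted p = 0.0065). TCF7L2 did not pass (5.31 ± 0.36 and 5.02 ± 0.15 FPKM, limma adjusted p = 0.575). CTNNB1, which encodes beta-catenin, rose from 124 ± 14.4 to 176 ± 17.1 FPKM (limma adjusted p = 0.0034). LEF1 passed the filter only through its control values. The cofactor gene BCL9L rose from 16.7 ± 2.00 to 27.3 ± 1.27 FPKM. Of 8 tested beta-catenin target genes, 2 were higher and 5 lower (2 and 4 after median-of-ratios scaling). That is 87.5% called, beside 35.9% of all tested genes. TCF7, LEF1, ZNRF3 and APCDD1 were counted here and also in the lists above, so the lists are not separate. The target genes did not move as a group. CCND1, which encodes cyclin D1, fell from 83.4 ± 13.7 to 32.3 ± 0.74 FPKM. AXIN2, the feedback inhibitor often read as a sign of beta-catenin activity, rose from 0.525 ± 0.139 to 1.95 ± 0.18 FPKM (log2 difference 0.95, limma adjusted p = 2.9e-05). AXIN2 passed the filter only through the libraries labelled YAP.

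**Figure D4:**
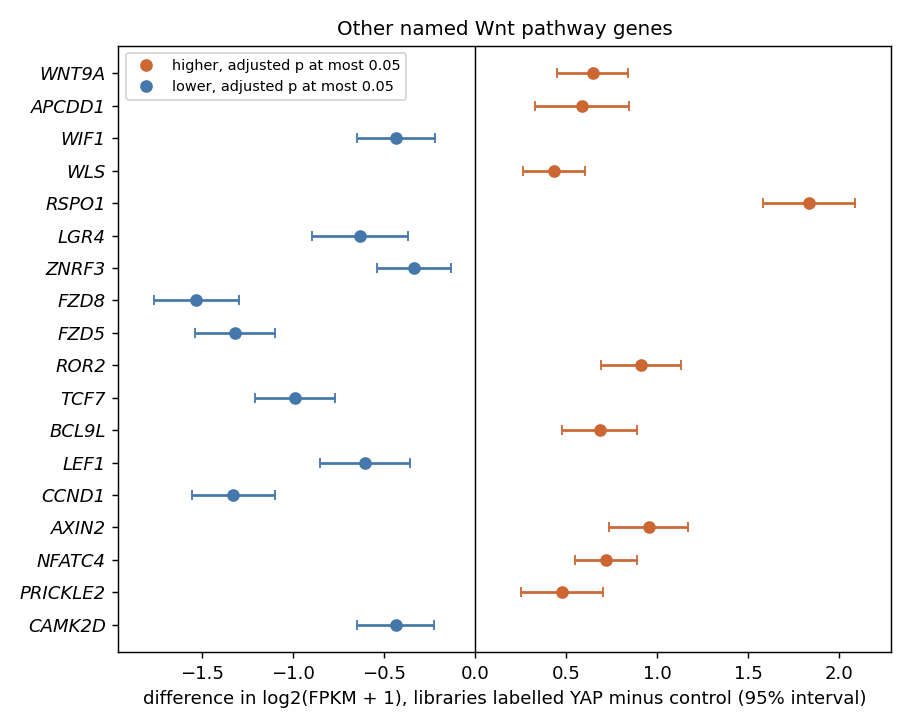
Points are log2 differences in FPKM + 1, libraries labelled YAP minus control, with unadjusted 95% confidence intervals from limma, for the named pathway genes outside the 10 followed, taken as those with the smallest adjusted p in each list. RSPO1 (1.84) stands farthest to the right, and FZD8 (-1.53), CCND1 (-1.33) and FZD5 (-1.32) farthest to the left. FZD5, LEF1 and AXIN2 passed the filter on low values through 1 group alone, and RSPO1 reached 1 FPKM among controls only in replicate 1.

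The genes most like WNT5A and DKK3 over the 6 libraries were found by the Euclidean distance between log2(FPKM + 1) values centred on each gene's mean, among 10759 other tested genes. For WNT5A they were ERAP2, an aminopeptidase that trims antigenic peptides (distance 0.134), SIPA1L2 (0.159) and the lipopolysaccharide coreceptor gene CD14 (0.165). For DKK3 they were the mitochondrial carnitine carrier gene SLC25A20 (0.063), the heparan sulfate sulfotransferase gene HS3ST3A1 (0.0664) and LLPH (0.0765). With 6 libraries in 2 groups, the group difference is part of this likeness, which is a description without a test.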

How the data were processed

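FPKM values were deposited by the authors, the control libraries in 1 table and the YAP libraries in another. Tools named in the submitters' processing notes are fastp, HISAT2 and HTSeq, with no version or setting. Genome build, annotation, strand setting and treatment of multi-mapped reads are not given in the sources consulted. Columns were matched to samples by title. The YAP table held 6 further columns of per-sample values (TAZ and pcDNA) that match no sample title and entered no comparison, and 3 of them, named pcDNA, equal the control columns. Gene names are the deposited symbols, and all 8 genes found matched the RefSeq table. No sequences are shown.

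Reads were recovered as whole multiples of the FPKM step of each gene (whole within 0.05 reads for 15957 of 15958 rows above 0). The test was limma 3.58.1 in R 4.3.3 (lmFit, eBayes with trend) on log2(FPKM + 1), two-sided, with Benjamini-Hochberg adjustment over 10761 genes, and it was checked on simulated data. Groups and replicate numbers came from the titles. Members and lists were chosen with earlier results of these data known. All 10 listed genes are named where found. From each pathway list up to 3 genes are named by smallest adjusted p, or the most abundant where none passed. Others are named with their values already known. These are WWTR1, RSPO3, PORCN, DKKL1, WNT1, WNT2, WNT6, ROR1, RYK, PTK7, FZD1, FZD2, FZD4, FZD10, TCF7L1, TCF7L2, CTNNB1 and the cell type markers. The alternatives tried were a pseudocount of 0.1, other filters, median-of-ratios scaling, the replicate block, leaving out each library and limma-voom on recovered reads.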

Additional observations from a re-analysis of the deposited data

How the results depend on the processing

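The 12 alternatives gave 5 to 7 calls among the genes followed (6 in the main analysis) and 24 to 35 among the other Wnt pathway genes (31). The number of all genes called was 3868, and 2411 to 3606 when a library was left out, the lowest without YAP replicate 1 (1024 higher and 1387 lower). No direction of a gene followed turned in any alternative that gave it a value. SFRP4 lost its call without YAP replicate 1 or 3, ZNRF3 without control replicate 1 (-0.30), and WNT10B passed without YAP replicate 1 (-0.38). The small YAP1 difference of 0.01 ranged from -0.0282 to 0.0545 when a library was left out and turned negative without control replicate 1 (-0.0282), YAP replicate 1 (-0.0177) and YAP replicate 3 (-0.0141); the cause was not tested. The labels do not say what same-numbered libraries share beyond the number. Their deviations from the group means correlated at -0.02, 0.59 and 0.60 for numbers 1 to 3 across genes. Control replicate 3 with YAP replicate 2 gave -0.62, and control replicate 2 with YAP replicate 3 gave -0.56. Whether the number marks a pairing or a batch was not tested. With the replicate number as a block, 5573 genes passed, all 7 tested genes among those followed, WNT10B included (-0.27, limma adjusted p = 0.039), and 35 other Wnt pathway genes. Depth limits NOTUM (4 to 17 reads in the libraries labelled YAP) and WNT5B most.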

Other observations

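The annotation in the authors' deposited table placed 7 of the 8 genes found, all but DKK3, in the KEGG Wnt signaling pathway. This annotation was looked at after the data were seen. Of 142 other genes with that annotation, 98 were tested, of which 18 were higher, 25 lower and 55 did not pass in the libraries labelled YAP by limma. That is 43.9% called, beside 35.9% of all tested genes, with a median log2 difference of -0.04. After median-of-ratios scaling, 22 were higher and 17 lower, so which direction held more calls depended on scaling.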
